A study of Homo sapiens with 4 samples.

Results

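The comparison described here is that of BEAS-2B cells given 100 mGy of gamma rays with unirradiated BEAS-2B cells, across the expressed genes. It uses 1 single-cell library per condition, labelled R100 and R0. BEAS-2B is a line derived from normal human bronchial epithelium and immortalized with an adenovirus-SV40 hybrid virus, whose large T antigen binds p53. Both cultures were this same line without any other agent. The source was Cs-137 and irradiated cells were processed 30 min after exposure, and libraries of 10 mGy and 1 Gy come from the same study. Cell barcodes were kept with at least 5000 unique molecular identifiers (UMIs, each a captured mRNA molecule) and at most 10% of UMIs from mitochondrially encoded genes. This left 8998 of 11111 barcodes in the control and 14245 of 19950 at 100 mGy, or 23243 of the 68085 barcodes deposited in the 4 libraries. Genes were described if their mean over both libraries reached 10 CPM (UMIs of the gene per 1000000 UMIs of the pooled cells), which 8438 of 36601 genes did. FOS lay just inside this floor, with a mean of 10.0 CPM and a ratio of 100 mGy to control of 0.295, and NUDT12 just outside it, with 9.99 CPM and 0.848.

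The kept cells held 208270532 UMIs in the control and 237261399 at 100 mGy, with a median per cell of 21702 and 15224. Barcodes under the minimum numbered 2051 and 5679, and a further 62 and 26 were over the mitochondrial limit. Both libraries shared 37 barcode sequences, 0.411% of the control cells and 0.260% of the 100 mGy cells. The epithelial keratin KRT7 stood at 643 CPM in the control and 590 at 100 mGy, KRT8 at 273 and 249 CPM, and KRT18 at 236 and 306 CPM (ratio 1.298). The epithelial adhesion genes were near 0, with EPCAM at 0.903 and 1.19 CPM and CDH1 at 0.0336 and 0.0211 CPM, whereas the mesenchymal filament gene VIM stood at 2687 and 2339 CPM. None of the 20 markers of airway basal, secretory or ciliated, blood and endothelial cells reached 10 CPM, and TP63, SCGB1A1 and CD3E had at most 1 UMI in either library. With 1 library per dose, dose cannot be told apart from library or from any batch of preparation, which is not given in the sources used here, no test between doses was possible, and the 95% intervals given are exact and cover counting error only.

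Ionizing radiation breaks DNA, which activates the kinase ATM, stabilizes p53 and induces p53 target genes such as CDKN1A and MDM2 over the following hours. Immediate early genes such as FOS and EGR1 encode transcription factors whose mRNAs rise and decay within the first hour after a stimulus. Ribosomal protein mRNAs form one of the most abundant classes in dividing cells, and most begin with a 5′ terminal oligopyrimidine (TOP) tract, a C followed by a run of pyrimidines, through which their translation responds to growth signals.

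At 100 mGy, mRNAs for ribosomal proteins and for nuclear subunits of the respiratory chain took a larger share of the UMIs, and most other genes a smaller one. Of the 8438 genes, 1178 (14.0%) were over 1.2-fold higher in pooled CPM at 100 mGy than in the control and 4958 (58.8%) were over 1.2-fold lower. In the text that follows, higher and lower refer to this 1.2-fold threshold. The median gene stood at 0.767 of its control level, a log2 ratio of -0.38. Among the 1767 genes of at least 100 CPM the median log2 ratio was -0.07, with 31.0% higher and 38.6% lower. Relative to the median gene of all 8438, 2692 genes (31.9%) were over 1.2-fold higher and 2445 (29.0%) over 1.2-fold lower. The higher genes held 28.3% of UMIs in the control and 44.4% at 100 mGy, whereas the lower genes held 42.0% and 26.6%. Because CPM adds up to a fixed total, a larger share of one group of genes lowers the CPM of all others. With ribosomal protein and mitochondrially encoded genes left out of the total, 1558 genes were higher and 4209 lower, and the median gene had a log2 ratio of -0.26. At 1.5-fold, 426 genes (5.05%) were higher and 2851 (33.8%) lower, and at 2-fold 39 genes (0.462%) were higher and 718 (8.51%) lower. Ratios lay between 0.160 and 2.48, with a middle 50% of log2 ratios from -0.70 to 0.01. The counting interval excluded a ratio of 1 for 8082 genes, so depth was not what limited these values, and the spread between cultures was not measured.

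**Figure D1:**
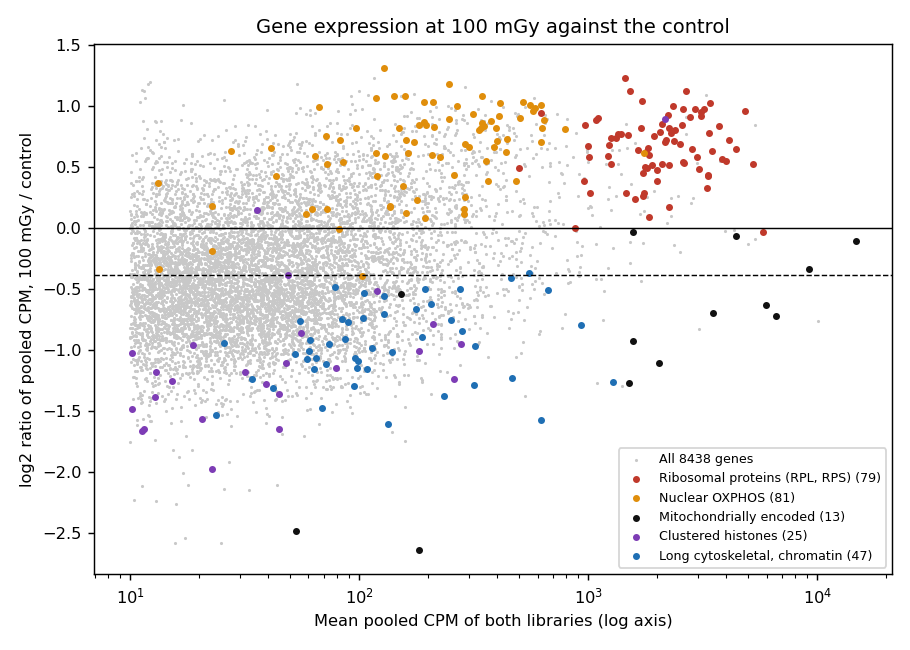
Each point is a gene, with its mean pooled CPM on a log axis and the log2 ratio of pooled CPM between 100 mGy and control. The solid line marks equal CPM and the dashed line the median gene at -0.38. Ribosomal protein and nuclear OXPHOS (oxidative phosphorylation) genes lie mostly above 0, and the long cytoskeletal and chromatin genes all lie below 0.

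Ribosomal protein genes held 13.9% of all UMIs in the control and 21.9% at 100 mGy. Of the 47 genes of the large subunit 44 were higher and 0 lower, and of the 32 genes of the small subunit 30 were higher and 0 lower. Median log2 ratios were 0.60 and 0.77, against -0.38 over all genes. FAU, which encodes the precursor of the small subunit protein eS30, stood at 863 CPM in the control and 2020 CPM at 100 mGy, a ratio of 2.34 (95% interval 2.33 to 2.35). RPS23, a protein of the decoding centre, stood at 1687 and 3677 CPM (ratio 2.18). In the large subunit RPL10 stood at 3297 and 6405 CPM (ratio 1.94), RPL41 at 3093 and 5093 CPM (ratio 1.65), and the stalk protein gene RPLP1 at 4301 and 6182 CPM (ratio 1.44).

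The ribosomal protein genes did not move by one factor. RPL4 stood at 878 CPM in both libraries (ratio 1.00) and RPS2 at 5872 and 5751 CPM (ratio 0.979), while RPS18 stood at 2227 and 4537 CPM (ratio 2.04). All 79 genes were nevertheless over 1.2-fold higher relative to the median gene. Many ribosomal protein genes have processed pseudogenes in the genome, so the split of reads between a gene and its copies depends on the authors' counting.

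The start sites of a few of these genes are printed because most ribosomal protein mRNAs share the TOP tract. The sequences run 15 bases to each side of the annotated start in RefSeq (GRCh38.p14, whereas the submitters' notes name GRCh37). They are in lower case, with the pyrimidine tract from the start site in capitals where the rule found one.
RPS23 (chr5:82278340-82278369, minus strand): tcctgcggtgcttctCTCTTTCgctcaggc
FAU (chr11:65122120-65122149, minus strand): cgccctcgcttcttcCTCTTTCTCgactcc
RPS18 (chr6:33272060-33272089, plus strand): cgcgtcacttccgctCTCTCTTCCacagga
RPLP1 (chr15:69452803-69452832, plus strand): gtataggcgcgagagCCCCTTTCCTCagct
RPL10 (chrX:154398050-154398079, plus strand): tttttccactctcagaaatatacgtctgtc
EEF1A1 (chr6:73521018-73521047, minus strand): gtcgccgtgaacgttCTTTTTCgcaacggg
NDUFB3 (chr2:201071986-201072015, plus strand): cgaggtgacaacctccgtttccggttggct
THBS1 (chr15:39581064-39581093, plus strand): ctcctccgccttgccagccgctgcgcccga
RPS23, FAU, RPS18 and RPLP1 carried tracts of 7, 9, 9 and 11 bases, and RPL41, not printed, one of 5 bases. RPL10 and RPL13 carried none at this start, nor did NDUFB3, the gene with the highest ratio, or THBS1 (ratio 0.385).

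A promoter entry was found for 6869 of the 8438 genes (81.4%). A C at the start followed by at least 4 pyrimidines stood in 43 of 63 ribosomal protein genes (68.3%), against 5.998% of all genes with an entry and 4.07% of 35116 promoters of the genome. Among genes over 1.2-fold higher that do not encode ribosomal proteins the share was 5.86%, and among genes over 1.2-fold lower 4.95%. EEF1A1, a TOP gene for the elongation factor that delivers tRNA to the ribosome, stood at 4340 CPM in the control and 4281 CPM at 100 mGy (ratio 0.987). In the list of 25 translation factors and other TOP genes, 7 were higher, 7 lower and 11 within 1.2-fold, with a median log2 ratio of 0.06. EIF3K, a small subunit of initiation factor eIF3, stood at 176 and 345 CPM (ratio 1.96), and RACK1, a protein of the small ribosomal subunit, at 1175 and 1593 CPM (ratio 1.36). EEF2 stood at 1022 and 818 CPM (ratio 0.801), the poly(A)-binding protein gene PABPC1 at 580 and 358 CPM (ratio 0.618), and the initiation scaffold EIF4G1 at 493 and 237 CPM (ratio 0.481).

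Other motifs were searched on both strands in the 250 bases before and 50 bases after the start. The ETS-type motif CCGGAAG stood in 28.9% of the higher genes, 19.2% of the lower genes and 22.2% of all genes with an entry, against 10.3% of all promoters. It stood in 41.8% of the mitochondrial ribosomal protein genes, a mostly higher list, and in 38.1% of the ZNF zinc finger genes, a mostly lower one. The YY1-type motif AAGATGGCG stood in 17.9% of the mitochondrial ribosomal protein genes, against 4.95% of all genes with an entry and 1.75% of all promoters. GGGCGG stood in 69.9% of higher and 74.7% of lower genes, TATAAA in 6.54% and 4.63%, and the NRF1-type motif GCGCATGCG in 4.96% and 4.41%. These shares describe letters in a window, and binding was not measured.

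The mitochondrial respiratory chain is built from subunits encoded in the nucleus and 13 proteins encoded in mitochondrial DNA, and these classes differed in direction. Nuclear subunits and assembly factors of complexes I, III, IV and V held 1.66% of UMIs in the control and 2.74% at 100 mGy. For the NDUF genes, listed by name with complex I, 36 of 46 were higher and 2 lower (median log2 ratio 0.68). For complexes III, IV and V, 29 of 35 tested genes were higher and 0 lower (median 0.73). NDUFB3, an accessory subunit of complex I, stood at 73.9 and 183 CPM, with 15388 and 43533 UMIs and a ratio of 2.48 (95% interval 2.44 to 2.53), the highest of all 8438 genes. COX6C of cytochrome c oxidase stood at 151 and 342 CPM (ratio 2.27), and ATP5MD of ATP synthase at 374 and 785 CPM (ratio 2.10). NDUFA13 stood at 394 and 780 CPM (ratio 1.98), NDUFS5 at 390 and 757 CPM (ratio 1.94) and ATP5F1E at 1388 and 2128 CPM (ratio 1.53). The large core subunit gene NDUFS1 stood at 116 and 88.5 CPM (ratio 0.761) and the assembly factor gene NDUFAF7 at 14.9 and 11.8 CPM (ratio 0.792), the 2 lower NDUF genes. The ATP synthase gene ATP5F1A stood at 189 and 199 CPM (ratio 1.06). Grouped after their values were seen, the 8 assembly factor genes NDUFAF had a median log2 ratio of 0.38 and the other 38 NDUF genes 0.74.

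Mitochondrial ribosomal protein genes followed, with 50 of 76 higher and 3 lower (median log2 ratio 0.36). MRPS24 stood at 210 and 381 CPM (ratio 1.81) and MRPL51 at 305 and 513 CPM (ratio 1.68). MRPL49 stood at 29.11 and 23.99 CPM, a ratio of 0.824 that lies above the median gene. Of 22 genes of the protein import machinery 11 were higher and 4 lower (median 0.28). TOMM7, a small subunit of the outer membrane translocase, stood at 355 and 656 CPM (ratio 1.85), and TIMM21 at 21.5 and 14.6 CPM (ratio 0.681).

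The 13 genes of mitochondrial DNA together held 5.90% of UMIs in the control and 4.40% at 100 mGy, with 10 lower and 0 higher (median log2 ratio -0.70). In cells with at most 5% mitochondrially encoded UMIs the median was -0.36, beside a median gene of -0.39. That filter selects cells on the quantity compared and so narrows the difference by itself. The share per cell had a median of 5.97% and a lower quartile of 5.30% in the control, against a median of 4.58% at 100 mGy. Ratios of the 13 genes spread widely. The library captures poly(A) RNA, and whether these ratios follow the levels of the transcripts was not tested. MT-ND3 stood at 1585 and 1547 CPM (ratio 0.976), MT-CYB at 4533 and 4326 CPM (ratio 0.954) and MT-CO2 at 15292 and 14229 CPM (ratio 0.930). MT-CO3 stood at 10284 and 8150 CPM (ratio 0.792), which is above the median gene. MT-CO1 had a ratio of 0.646, MT-ATP6 of 0.606 and MT-ND5 of 0.525. MT-ND2 stood at 2788 and 1294 CPM (ratio 0.464) and MT-ND1 at 2117 and 879 CPM (ratio 0.415). MT-ND6, the protein gene encoded on the light strand of mitochondrial DNA, stood at 315 and 50.4 CPM, with 65535 and 11953 UMIs and a ratio of 0.160 (95% interval 0.157 to 0.163), the lowest of all 8438 genes. MT-ATP8 stood at 90.1 and 16.1 CPM (ratio 0.179). Nuclear copies of mitochondrial DNA can share reads with these genes, and cells over the mitochondrial limit were left out of both libraries.

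Genes of the proteasome and of the RNA polymerases held both directions. Of 37 proteasome genes 16 were higher and 7 lower (median log2 ratio 0.20). Split into core and regulatory particle after the values were seen, the 17 tested PSMA and PSMB genes had 14 higher and 0 lower (median 0.58), and the 20 PSMC and PSMD genes had 2 higher and 7 lower (median 0.06). PSMB3 stood at 179 and 399 CPM (ratio 2.23) and PSMB1 at 359 and 605 CPM (ratio 1.69), whereas PSMD2 stood at 679 and 480 CPM (ratio 0.706). Of 29 RNA polymerase genes 9 were higher and 15 lower, and the median of -0.32 turned to 0.07 when taken relative to the median gene. POLR2L stood at 562 and 1045 CPM (ratio 1.86) and POLR2G at 61.2 and 124 CPM (ratio 2.03), whereas POLR2A, the catalytic subunit of polymerase II, stood at 150 and 111 CPM (ratio 0.737), POLR2D at 55.8 and 36.9 CPM (ratio 0.661) and POLR3E at 23.2 and 12.6 CPM (ratio 0.541), the lowest of the list.

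Components of the splicing machinery divided as well. Of 22 small nuclear ribonucleoprotein and LSM genes 15 were higher and 2 lower (median log2 ratio 0.48). SNRPG stood at 477 and 810 CPM (ratio 1.70) and LSM3 at 247 and 456 CPM (ratio 1.84), whereas the helicase gene SNRNP200 stood at 177 and 125 CPM (ratio 0.704). Of 34 tested HNRNP, SRSF and SRRM genes, which regulate splice site choice and mRNA packaging, 22 were lower and 0 higher. Their median of -0.39 lay at the median of all genes, and relative to it 7 were higher and 7 lower. HNRNPU stood at 979 and 555 CPM (ratio 0.566), SRSF1 at 132 and 71.6 CPM (ratio 0.540), and SRSF7 at 287.5 and 328.5 CPM (ratio 1.14).

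Genes of the DNA damage response stood near the other genes 30 min after 100 mGy. Of 21 tested p53 targets 4 were higher and 11 lower, beside 14.0% and 58.8% of all genes. The median log2 ratio of these targets, -0.30, became 0.08 relative to the median gene, so the sign of the list depended on the scaling. CDKN1A, which encodes the cyclin-dependent kinase inhibitor p21, stood at 28.6 and 24.8 CPM, a ratio of 0.870 (95% interval 0.839 to 0.902). MDM2, the ubiquitin ligase of p53, stood at 61.2 and 29.9 CPM (ratio 0.488), and PLK2 at 338 and 199 CPM (ratio 0.589). GADD45A stood at 169 CPM in both libraries (ratio 1.00) and the apoptosis gene BAX at 83.0 and 106 CPM (ratio 1.27). RPS27L, a p53 target that encodes a relative of ribosomal protein eS27, was the highest of the list at 391.8 and 615 CPM (ratio 1.57). The summed CPM of all listed p53 targets was 0.997 of the control. Of 8 tested BCL2 family genes 2 were higher and 4 lower, among them the survival gene MCL1 at 133 and 72.3 CPM (ratio 0.545) and BAD at 124 and 173 CPM (ratio 1.395).

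Of 24 tested genes of double-strand break signalling and repair, 1 was higher and 15 lower (median log2 ratio -0.44), beside 58.8% of all genes lower. ATM stood at 69.5 and 36.8 CPM (ratio 0.531), MDC1 at 46.7 and 22.6 CPM (ratio 0.485), RIF1 at 210 and 102 CPM (ratio 0.487) and PALB2 at 29.1 and 13.6 CPM (ratio 0.468). The end-joining genes XRCC5 and XRCC6 had ratios of 0.895 and 0.841, and PRKDC, the catalytic subunit of the same complex, stood at 618 and 477 CPM (ratio 0.772), level with the median gene. RAD51C was the 1 gene higher, at 42.1 and 64.7 CPM (ratio 1.54). Of 24 tested genes of base, nucleotide and mismatch repair 2 were higher and 14 lower, and the median of -0.28 turned to 0.10 relative to the median gene. RPA3, the smallest subunit of the single-strand binding protein RPA, was outside these lists and stood at 110 and 237 CPM (ratio 2.14), while RPA1 and RPA2 had ratios of 0.916 and 0.986.

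Cell cycle lists had medians between equal CPM and the median gene. Beside their counts, 14.0% of all genes were higher and 58.8% lower. Of 29 G2 and mitosis genes 6 were higher and 11 lower (median log2 ratio -0.14). UBE2C, the ubiquitin-conjugating enzyme of the anaphase-promoting complex, stood at 258 and 469 CPM (ratio 1.82) and the securin gene PTTG1 at 294 and 503 CPM (ratio 1.71). MKI67 stood at 682 and 356 CPM (ratio 0.522), TPX2 at 593 and 432 CPM (ratio 0.729) and CENPF at 498 and 352 CPM (ratio 0.707). CCNB1 and CDC20 had ratios of 1.04 and 1.04. Of 25 tested replication and G1/S genes 2 were higher and 13 lower, and the median of -0.26 turned to 0.12 relative to the median gene. PCNA stood at 178 and 181 CPM (ratio 1.01), RRM1 at 185 and 183 CPM (ratio 0.986) and MCM4 at 219 and 128 CPM (ratio 0.586).

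Over all kept cells, histone genes of the HIST1 and HIST2 clusters were the list with the lowest median. Most mRNAs of these genes end in a stem-loop without a poly(A) tail, and the library captures poly(A) RNA. Of 25 genes that reached the floor 23 were lower and 1 higher (median log2 ratio -1.18). The linker histone genes HIST1H1B and HIST1H1C stood at 362 and 153 CPM (ratio 0.423) and 368 and 190 CPM (ratio 0.516). HIST2H2AC stood at 267 and 154 CPM (ratio 0.579) and HIST1H4H at 36.1 and 9.15 CPM (ratio 0.253). HIST1H4C went the other way, at 1508 and 2803 CPM (ratio 1.86), so that the summed CPM of the list was 1.02 of the control. H2AFZ, a variant histone gene outside these clusters and looked up after the list was seen, stood at 1144 and 1801 CPM (ratio 1.57). Members of a core histone class are similar in sequence, so their separate values may depend on how the authors' counting treated shared reads.

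Of 20 tested immediate early genes 18 were lower and 2 higher (median log2 ratio -0.58). NR4A1, an orphan nuclear receptor, stood at 29.6 and 5.06 CPM, with a ratio of 0.171. FOS stood at 15.4 and 4.56 CPM (ratio 0.295), with 3216 and 1082 UMIs, and FOSB at 26.96 and 8.24 CPM (ratio 0.306). JUN stood at 276 and 193 CPM (ratio 0.699), IER2 at 175.3 and 123.3 CPM (ratio 0.703) and MYC at 77.9 and 52.0 CPM (ratio 0.667). IER3 stood at 448 and 371 CPM (ratio 0.829), above the median gene. EGR1 and JUND were the 2 higher genes, at 40.1 and 53.1 CPM (ratio 1.32) and 102.5 and 143 CPM (ratio 1.395). Relative to the median gene 2 of the 20 were higher and 7 lower.

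Of 13 tested NF-kB targets and cytokines 10 were lower and 1 higher (median log2 ratio -0.72). BIRC3, an inhibitor of apoptosis, stood at 36.9 and 13.4 CPM (ratio 0.362), and the chemokine gene CXCL8 at 39.4 and 17.6 CPM (ratio 0.447). NFKBIA, which encodes the inhibitor IkB-alpha, stood at 109.5 and 98.75 CPM (ratio 0.902), and CCL2 was higher at 27.4 and 39.5 CPM (ratio 1.44). Interferon-stimulated genes lay on the other side of the median gene, with 8 of 16 higher and 2 lower (median 0.41). B2M, the light chain of MHC class I, stood at 686 and 1031 CPM (ratio 1.502) and IFITM3 at 165 and 266 CPM (ratio 1.61). IFI27L2 stood at 62.6 and 136 CPM (ratio 2.18), HLA-B at 542 and 589 CPM (ratio 1.09), and the peptide transporter gene TAP1 at 23.1 and 15.9 CPM (ratio 0.686).

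Genes that remove superoxide and peroxide and the tested metallothionein genes were mostly higher, and NRF2 targets were not. Of 15 tested genes that remove superoxide and peroxide 11 were higher and 0 lower (median log2 ratio 0.45). PRDX1, a peroxiredoxin, stood at 498 and 955 CPM (ratio 1.92), thioredoxin TXN at 1102 and 1586 CPM (ratio 1.44), and the lipid peroxidase gene GPX4 at 253 and 367 CPM (ratio 1.45). The 3 tested metallothionein genes were higher, with MT2A at 3039 and 4443 CPM (ratio 1.46), MT1E at 262 and 406 CPM (ratio 1.55) and MT1X at 86.1 and 143 CPM (ratio 1.66). They are close paralogs. Of 16 tested NRF2 targets 1 was higher and 7 lower (median -0.20). NQO1 stood at 143 and 179 CPM (ratio 1.26), HMOX1 at 313 and 138 CPM (ratio 0.442), and the cystine transporter gene SLC7A11 at 16.7 and 7.02 CPM (ratio 0.419). The iron storage gene FTH1 stood at 3980 and 3902 CPM (ratio 0.980).

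Of 14 heat shock genes 3 were higher and 5 lower (median log2 ratio -0.12), with HSP90AA1 at 1738 and 2149 CPM (ratio 1.24), HSPE1 at 604 and 879 CPM (ratio 1.46) and the endoplasmic reticulum chaperone gene HSPA5 at 320 and 192 CPM (ratio 0.602). Of 8 chaperonin subunits 1 was higher and 2 lower (median -0.05). CCT7 stood at 149 and 188 CPM (ratio 1.26) and CCT5 at 383 and 307 CPM (ratio 0.802), the latter above the median gene. Of 14 tested genes of the ATF4 stress response 0 were higher and 10 lower, and the median of -0.36 turned to 0.03 relative to the median gene. ATF4 stood at 128 and 71.4 CPM (ratio 0.559) and PPP1R15A, a phosphatase subunit that restores translation after stress, at 179 and 101 CPM (ratio 0.567).

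All 26 long cytoskeletal and adhesion genes were lower (median log2 ratio -0.99), and their share of UMIs was 0.990% in the control and 0.514% at 100 mGy. MYH9, the heavy chain of nonmuscle myosin IIA, stood at 1815 and 758 CPM (ratio 0.417), and the actin crosslinker FLNA at 1181 and 681 CPM (ratio 0.576). DST, a cytolinker, stood at 932 and 312 CPM (ratio 0.335), and the giant cadherin FAT1 at 201 and 66.1 CPM (ratio 0.328). All 19 tested genes of the collagen, laminin and integrin list were lower (median -0.95). COL4A1, a basement membrane collagen, stood at 146 and 59.4 CPM (ratio 0.407), LAMC1 at 168 and 72.6 CPM (ratio 0.431) and ITGB1 at 1375 and 961 CPM (ratio 0.699). Relative to the median gene 21 of the 26 and 15 of the 19 were lower and 0 higher.

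Of 16 tested matricellular and TGF-beta response genes 14 were lower and 1 higher (median log2 ratio -0.57). THBS1, which encodes thrombospondin 1, stood at 765 and 294 CPM (ratio 0.385), and TGFBI at 348 and 184 CPM (ratio 0.527). CCN1 stood at 757 and 519 CPM (ratio 0.685) and CCN2 at 226 and 161 CPM (ratio 0.712). The actin-binding gene TAGLN was the 1 gene higher, at 1090 and 1376 CPM (ratio 1.26). FN1, the fibronectin gene and a mesenchymal marker, stood at 1541 and 640 CPM (ratio 0.415), and GREM1, a secreted antagonist of bone morphogenetic proteins, at 243 and 72.5 CPM (ratio 0.298). The mesenchymal marker list as a whole had 5 of 6 genes lower, with a median of -0.30 that turned to 0.08 relative to the median gene.

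Lists of small calcium-binding and cytoskeletal proteins held higher genes. Of 6 tested S100 genes 5 were higher and 0 lower (median log2 ratio 0.71), with S100A6 at 1846 and 3477 CPM (ratio 1.88), S100A10 at 1014 and 1736 CPM (ratio 1.71) and S100A11 at 770 and 1199 CPM (ratio 1.56). LGALS1, the lectin galectin 1, stood at 2084 and 4445 CPM (ratio 2.13). Of 21 actin, thymosin and light chain genes 5 were higher and 4 lower (median 0.03). The actin-sequestering gene TMSB10 stood at 3816 and 6845 CPM (ratio 1.79), ARPC3 at 199.9 and 370.5 CPM (ratio 1.85), ACTB at 5487 and 5153 CPM (ratio 0.939), and TPM4 at 1460 and 866 CPM (ratio 0.593).

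Among genes that act in the nucleus, all 23 tested long chromatin regulators were lower (median log2 ratio -0.90). KMT2A stood at 245 and 132 CPM (ratio 0.538), KMT2D at 35.2 and 12.2 CPM (ratio 0.346) and CHD4 at 315 and 187 CPM (ratio 0.592). Of 123 ZNF genes that reached the floor, out of 509 in the files, 99 were lower and 5 higher (median -0.56). Of all genes 58.8% were lower and 14.0% higher. Relative to the median gene 40 of the 123 were lower and 17 higher, beside 29.0% and 31.9% of all genes. ZNF407 stood at 28.2 and 10.3 CPM (ratio 0.364), and ZNF593, a small ribosome assembly factor, at 117 and 186 CPM (ratio 1.59). The nuclear retained RNAs MALAT1 and NEAT1 stood at 12628 and 7428 CPM (ratio 0.588) and 3875 and 2187 CPM (ratio 0.564). Of 25 tested host genes of small nucleolar RNAs 8 were higher and 8 lower (median log2 ratio 0.09). Relative to the median gene 14 were higher and 2 lower. ZFAS1 stood at 327 and 572 CPM (ratio 1.75), SNHG29 at 196 and 363 CPM (ratio 1.86), SNHG16 at 273 and 227 CPM (ratio 0.832, above the median gene) and SNHG14 at 29.05 and 13.35 CPM (ratio 0.460).

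Metabolic lists also had medians between equal CPM and the median gene. Over all genes 14.0% were higher and 58.8% lower. Of 17 tested glycolysis genes 1 was higher and 10 lower, and the median log2 ratio of -0.32 turned to 0.06 relative to the median gene. GAPDH stood at 2208 and 2364 CPM (ratio 1.07), TPI1 at 585 and 760 CPM (ratio 1.30) and the pyruvate kinase gene PKM at 1026 and 799 CPM (ratio 0.779, above the median gene). Of 20 genes of cholesterol synthesis and uptake 5 were higher and 6 lower (median -0.13), with FDPS at 94.6 and 149 CPM (ratio 1.58). Of 6 genes of nicotinamide metabolism 2 were higher and 3 lower. NNMT, which methylates nicotinamide, stood at 69.3 and 162 CPM, a ratio of 2.34 (95% interval 2.30 to 2.39), second only to NDUFB3 among all genes. NAMPT, which recycles nicotinamide to NAD, stood at 60.9 and 33.4 CPM (ratio 0.548).

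**Figure D2:**
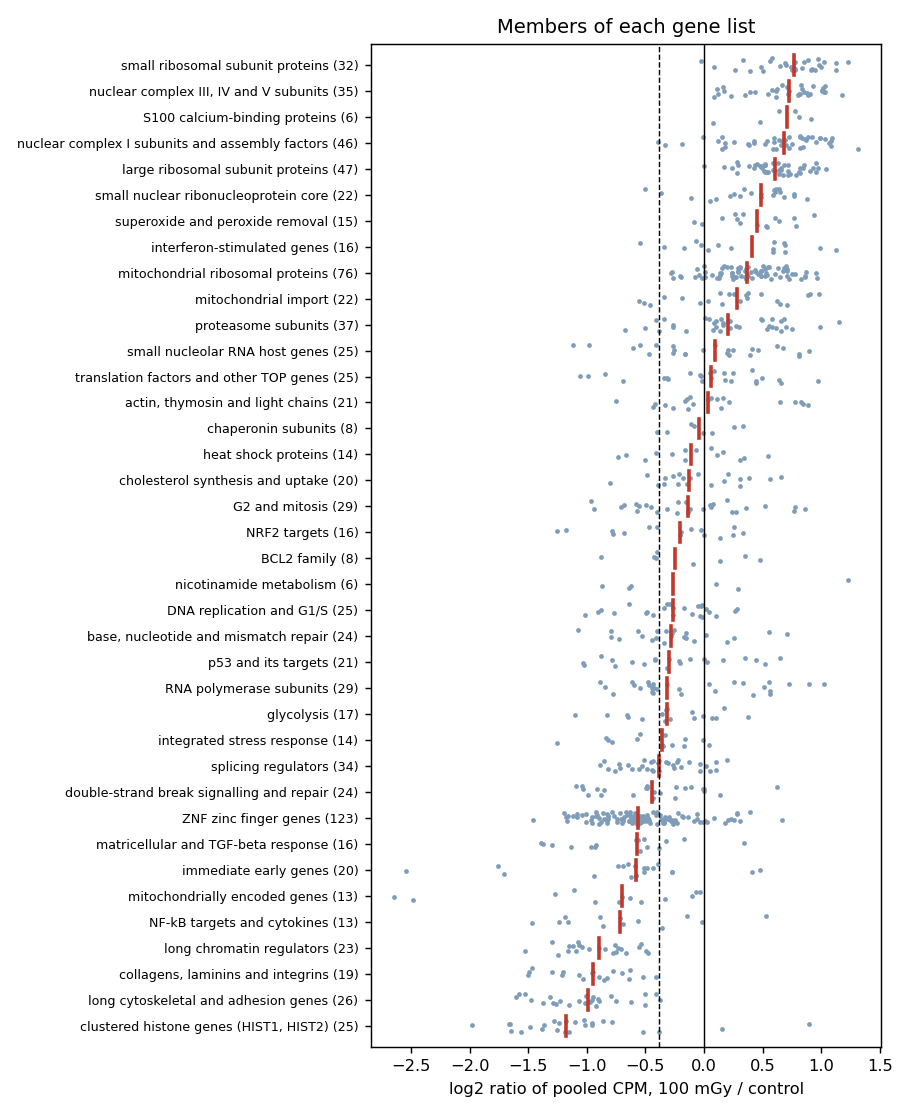
Each point is a gene of a list, with its log2 ratio of pooled CPM between 100 mGy and control, and red bars are list medians (number of genes in brackets). The solid line marks equal CPM and the dashed line the median gene at -0.38, and p53 targets, glycolysis and RNA polymerase subunits are among the lists whose medians lie between these lines, so that their sign depends on the scaling. The medians run from -1.18 for histones to 0.77 for the small ribosomal subunit.

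Among genes of at least 100 CPM, the 15 highest ratios included those of NDUFB3, NNMT, FAU, COX6C, PSMB3, RPS23, RPA3, C12orf57, LGALS1, NDUFB4, NDUFA6, NDUFA4, RNF181 and ATP5MD, from 2.48 down to 2.10. Outside the lists, C12orf57 stood at 69.5 and 148 CPM and the ubiquitin ligase gene RNF181 at 97.7 and 207 CPM. The 15 lowest belonged to MT-ND6, GREM1, TRIO, FAT1, DST, HIPK2, NAV2, MACF1, THBS1, IGF2R, PRRC2B, ETS1, MICAL2, SPEN and TAOK1, from 0.160 to 0.402. TRIO, a guanine nucleotide exchange factor, stood at 211 and 66.2 CPM (ratio 0.314), the kinase gene HIPK2 at 232 and 83.9 CPM (ratio 0.361), and the transcription factor gene ETS1 at 294 and 115 CPM (ratio 0.390). At 10 to 100 CPM the highest ratios were those of TRAPPC6A, PIN4, LINC01638, MGST2 and IFI27L2 (2.29 to 2.18). The lowest there were those of NPIPB5 at 42.8 and 7.12 CPM (ratio 0.166), AC037198.1 (ratio 0.167), NR4A1, MT-ATP8, and RMRP, the RNA of a ribonuclease complex, at 26.3 and 5.46 CPM (ratio 0.208). NPIPB5 belongs to a family of near-identical copies and its value is uncertain for that reason. Several genes named in this range were under 10 CPM in 1 library and passed the floor on the mean. Among them were TRAPPC6A and LINC01638 in the control, and NPIPB5, NR4A1 and RMRP at 100 mGy.

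**Figure D3:**
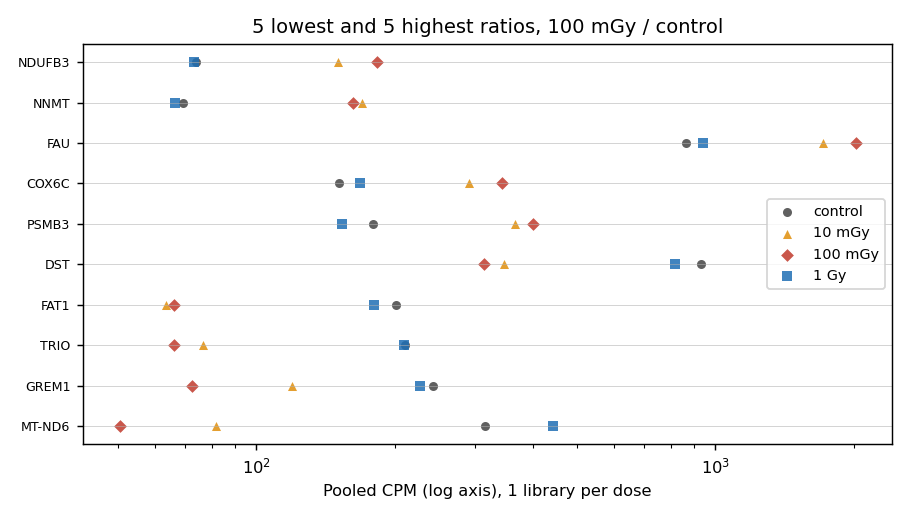
Pooled CPM on a log axis in each of the 4 libraries for the 5 highest and the 5 lowest ratios of 100 mGy to control among genes of at least 100 CPM. Each symbol is 1 library. NDUFB3 stood at 73.9 CPM in the control and 183 CPM at 100 mGy, with 150 CPM in the library of 10 mGy and 73.1 CPM in that of 1 Gy.

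The ratios varied with the length of the gene. Over 8431 genes with a length in GENCODE 29, the log2 ratio had a Spearman rho of -0.57 with exonic length and of -0.46 with the span of the gene, against 0.11 with GC content and 0.24 with mean CPM. Genes are not independent replicates, and these values describe this pair of libraries. In the shortest 10% of genes, up to 2158 bases, 467 of 843 genes were higher and 111 lower (median log2 ratio 0.33). In the longest 10%, from 11068 bases, 9 of 844 were higher and 760 lower (median -0.80). Several lists differed from genes of like length. In the shortest 20%, 20 large subunit ribosomal protein genes had a median of 0.65, 19 small subunit genes 0.78 and 28 NDUF genes 0.77, beside 0.14 for the other genes of this length. The 13 mitochondrially encoded genes and 23 histone genes of the same length class had medians of -0.70 and -1.18, beside 0.16. In the longest 20%, 26 cytoskeletal and adhesion genes had a median of -0.99 beside -0.72 for the others, and 21 chromatin regulators -0.98, whereas 29 ZNF genes had -0.70 and 8 break repair genes -0.73.

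**Figure D4:**
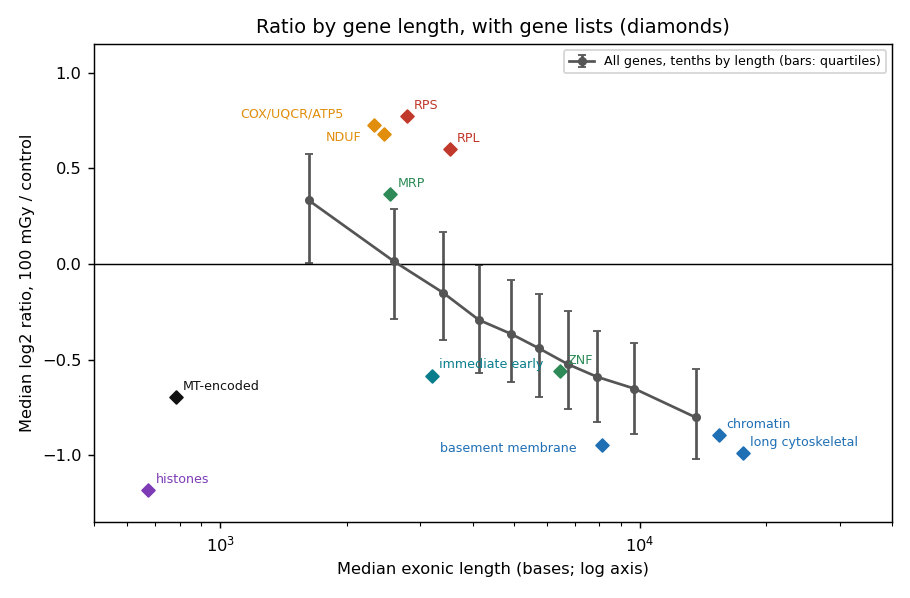
Grey points are 10 equal groups of the genes by exonic length (GENCODE 29, log axis), with the median log2 ratio of pooled CPM between 100 mGy and control and bars from the lower to the upper quartile. Diamonds are medians of gene lists at their median length. Medians of these groups run from 0.33 to -0.80, and the mitochondrially encoded and histone genes lie far below genes of similar length.

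Shares of UMIs were also taken cell by cell. With every cell thinned to 5000 UMIs, ribosomal protein genes took a median of 13.8% of the UMIs of a control cell and 21.7% of those of a 100 mGy cell, and 98.2% of the 100 mGy cells lay above the 95th percentile of the control cells. For nuclear OXPHOS genes the medians were 1.66% and 2.72%, with 96.8% of the cells above that percentile. Long cytoskeletal and adhesion genes took 0.96% and 0.50%, and 79.9% of the 100 mGy cells lay below the 5th percentile of the control. Mitochondrially encoded genes took 5.98% and 4.58% and chromatin regulators 0.32% and 0.18%, with 25.1% and 45.6% of the 100 mGy cells below that 5th percentile. S100 genes took 0.40% and 0.70%, with 55.9% of the cells above the 95th percentile. G2 and mitosis genes took 0.48% and 0.46% and p53 targets 0.14% in both, with overlapping ranges. Without thinning, the medians of the ribosomal protein share were 13.8% and 21.8%. At 5000 UMIs a control cell showed a median of 2452 genes and a 100 mGy cell 2139, and 99.9% of the 100 mGy cells showed fewer genes than the control median. Cells are not replicates of the dose, and depth per cell differed between the libraries.

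**Figure D5:**
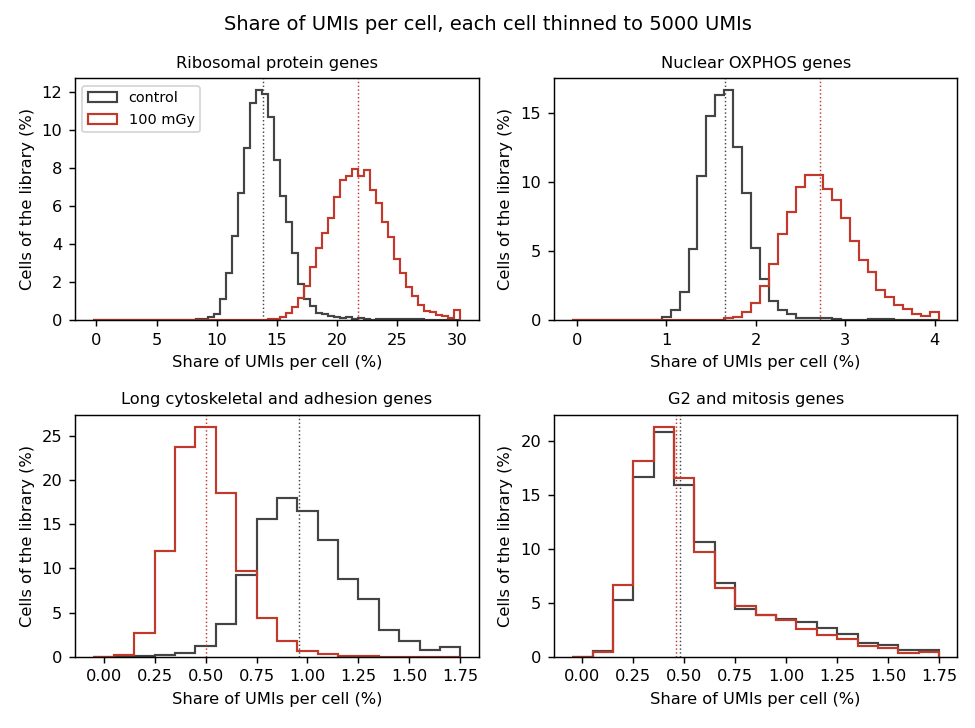
Histograms of the share of UMIs per cell for 4 gene lists, each cell thinned to 5000 UMIs, as percent of the cells of the control (grey) and the 100 mGy (red) library, with dotted lines at the medians. Ribosomal protein and nuclear OXPHOS shares are mostly separate, long cytoskeletal shares are shifted down, and G2 and mitosis shares overlap.

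Ratios were also computed within ranges of depth. In cells of 5000 to 10000 UMIs, 336 in the control and 2229 at 100 mGy, ribosomal protein genes held 15.5% and 22.2% of UMIs and the median gene a log2 ratio of -0.32. In cells of 20000 to 30000 UMIs, 3850 and 2693, the shares were 13.6% and 21.8% and the median gene -0.37. The mitochondrially encoded median was -0.32 in the shallowest range and -0.71 in the deepest, against -0.70 in all cells. The proteasome core particle median was 0.34 in the shallowest range, against 0.58 in all cells, and the translation median was -0.12 there, against 0.06. The histone median lay between -1.48 and -0.83 over 4 such ranges of depth. At 10000 to 15000 UMIs it was -0.98, beside -1.01 for the long cytoskeletal and adhesion list. At 15000 to 20000 UMIs the values were -0.83 and -0.89. The G2 and mitosis median was -0.46 in the shallowest range and 0.19 in the deepest, so its sign depended on which cells were compared. Other lists changed sign as well. Among them, the cholesterol median was 0.03 in the shallowest range and -0.21 in the deepest. The median of small nucleolar RNA host genes ran from -0.14 to 0.23.

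Dispersion, the standard deviation over the mean across cells (CV), was compared because the study sought genes whose spread narrows with dose. The study described expression divided by the control mean in its 10 mGy and 100 mGy groups. Here the control and 100 mGy libraries were compared, so the values below are not a check of its selection. After thinning, 791 of 1767 genes of at least 100 CPM (44.8%) had a lower CV at 100 mGy, and the median CV was 106% in the control and 110% at 100 mGy. Without thinning, in cells scaled to 10000 UMIs, 331 genes had a lower CV. Of 79 ribosomal protein genes 78 had a lower CV after thinning and 62 without it, with thinned medians of 40.3% and 34.4% for the large and 38.3% and 30.8% for the small subunit. The 5 lowest ratios of CV included those of NDUFB3 (167% and 106%), PSMB3, COX6C and RPA3. The 5 highest belonged to MT-ND6 (92.2% and 207%), DST (53.6% and 91.7%), FAT1, TRIO and HIPK2. All 10 are also among the 30 genes with the largest differences in level, and under counting noise alone a CV falls as the mean count rises. The variance over the mean (Fano factor), which is 1 for pure counting noise, was lower at 100 mGy in 6 of the 79 ribosomal protein genes and in 662 of all 1767 genes (37.5%), with ribosomal protein medians of 1.27 and 1.35 for the large and 1.26 and 1.402 for the small subunit. HIST1H4C had Fano factors of 4.19 and 7.75 and MT2A of 3.37 and 5.65, whereas FN1 had 3.03 and 1.90 and THBS1 2.88 and 1.90. At a fixed CV the Fano factor grows with the mean count, and the levels of these 4 genes differed in the same direction as their Fano factors. The CV was 75.2% and 76.1% for HIST1H4C, 46.8% and 50.4% for MT2A, 62.5% and 76.7% for FN1, and 85.6% and 111% for THBS1.

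The other doses are given beside these values, without a test, since each dose has 1 library and all ratios share the control library. Ribosomal protein genes held 20.01% of UMIs at 10 mGy and 13.9% at 1 Gy. By this share the 10 mGy library lay nearer to that of 100 mGy, and the 1 Gy library nearer to the control. Whether these pairs of libraries were prepared in different batches is not given in the sources used here and was not tested. Median ratios to the control of the large and the small ribosomal subunit were 1.44 and 1.51 at 10 mGy and 1.01 and 1.02 at 1 Gy, beside 1.52 and 1.71 at 100 mGy. For the histone list the median ratios were 0.506 at 10 mGy, 0.441 at 100 mGy and 0.777 at 1 Gy. MT-ND6 had ratios of 0.260, 0.160 and 1.41 in that order, NNMT 2.45, 2.34 and 0.962, RPS27L 1.97, 1.57 and 1.08, and the ferritin light chain gene FTL 1.78, 1.19 and 0.988. For HIST1H4C the ratios were 1.27, 1.86 and 0.996, and for PCNA 1.37, 1.01 and 0.944. Median depth per kept cell was 19987 UMIs at 10 mGy and 16469 at 1 Gy.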

How the data were processed

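Cells of 4 libraries were profiled with the Chromium Single cell 3′ v3 kit, and the R100 and R0 libraries were compared. For every barcode and gene, the authors deposited a raw UMI count. The file headers name Cell Ranger 7.0.1, and the submitters' processing notes name Cell Ranger, STAR and GRCh37. Whether intronic reads were counted is not given in the sources used here, and no filter on cells was found in the study's text. Doublets were not removed.

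Barcodes of at least 5000 UMIs and at most 10% mitochondrially encoded UMIs were kept, counts were summed per library, and CPM ratios were taken for genes of at least 10 CPM. Intervals are exact (Clopper-Pearson, 95%). A gene was called past 1.2-fold, with 1.5-fold and 2-fold as alternatives. There are no replicates, so precision rests on counting alone, with intervals reaching a median of 3.03% to each side of the ratio. Per-cell shares and dispersion used cells thinned to 5000 UMIs. Gene identifiers gave lengths in GENCODE 29 for 99.9% of genes, and start sites came from RefSeq.

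Genes were named by a rule: the 15 largest rises and falls of at least 100 CPM, the 5 largest under 100 CPM, the 4 most abundant members and the extremes of each of 40 lists and 6 marker lists, and the 5 largest rises and falls in CV. Further members of the lists, genes of the largest changes in Fano factor, and RPA1, RPA2 and H2AFZ were named after their values were seen. Some genes under this rule are left out of the text. The gene set, lists and tests were chosen with earlier results of these data known. Alternatives were other scalings (median ratio, TMM of edgeR 4.0.16), other barcode filters, other floors and folds, and unthinned cells. Ranges of depth per cell were added after the data were seen. In simulated data of this comparison, 40 genes changed by each fold of 0.5, 0.8, 1.25, 1.5 and 2 gave medians of 0.503, 0.797, 1.25, 1.50 and 2.00. These medians were corrected for the known change of the total, which is not known in the real data. In a further simulation 8358 of the 8438 genes were lowered by a common factor. Their median ratio of pooled CPM was 0.982, so the size of that common fall was not seen in CPM. The remaining genes were drawn at random and raised. The value follows from these settings and does not describe the real data. R 4.3.3, Python 3.11.15, scipy 1.17.1, numpy 2.4.6 and pandas 2.3.3 were used.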

Additional observations from a re-analysis of the deposited data

How the results depend on the processing

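Which genes count as higher depends on the scaling and the fold. The 1178 higher and 4958 lower genes became 2692 and 2445 with median ratio scaling and 2659 and 2487 with TMM, both of which centre the genes by construction, and 1558 and 4209 when ribosomal protein and mitochondrially encoded genes were left out of the total. They became 426 and 2851 at 1.5-fold, 39 and 718 at 2-fold, and 548 and 682 at a floor of 100 CPM with 1767 genes. At a floor of 1 CPM, 1614 of 12830 genes (12.6%) were higher and 7808 (60.9%) lower. In the 4 ranges of depth, added later, the counts ran from 1117 to 1219 and from 4601 to 4865. Across the barcode filters all 36 lists past the fold kept their direction. These 36 include parts of lists grouped after their values were seen, and hold the histone list more than once. Of 202 named genes past the fold all kept their direction except MT-CO3. Its log2 ratio was 0.00924 with at most 5% mitochondrially encoded UMIs, where the median of the mitochondrially encoded genes was -0.36. For these genes that filter selects cells on the quantity compared. Of these 36 lists median ratio and TMM scaling turned the medians of 7, to 0.0657 and 0.0606 for RNA polymerase, 0.0799 and 0.0749 for p53 targets, 0.102 and 0.0972 for base, nucleotide and mismatch repair, 0.119 and 0.114 for replication, 0.0638 and 0.0587 for glycolysis, 0.0268 and 0.0217 for the ATF4 response and 0.0811 and 0.0760 for mesenchymal markers. Of the 202 genes they turned 13, to log2 ratios of 0.104 and 0.0985 for MRPL49, 0.0474 and 0.0423 for MT-CO3, 0.0648 and 0.0597 for CCT5, 0.00998 and 0.00489 for PRKDC, 0.0545 and 0.0494 for APEX1, 0.113 and 0.108 for IER3, 0.118 and 0.113 for SNHG16, 0.0946 and 0.0895 for ENO1, 0.0225 and 0.0174 for PKM, 0.0525 and 0.0474 for SLC7A5, 0.116 and 0.111 for CYP51A1, 0.0615 and 0.0564 for SPARC and 0.101 and 0.0955 for CDH2. The ratio of median shares per cell was 1.57 for ribosomal protein genes and 1.53 in cells of 10000 to 20000 UMIs. For OXPHOS genes it was 1.64, against 1.61 in those cells, 1.65 unthinned, and 1.65 both unthinned and without the mitochondrial limit. For long cytoskeletal genes it was 0.521, against 0.532 in cells of 10000 to 20000 UMIs, 0.515 unthinned, and 0.515 both unthinned and without the limit. Of the 1767 genes 791 had a lower CV when thinned and 331 when unthinned, with median depths of 21702 UMIs in the control and 15224 at 100 mGy, and the cause was not tested. No paired analysis was possible because each dose has 1 library. Leaving out a replicate was likewise not possible, and variation between cultures was not measured.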

Other observations

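Classes of noncoding RNA were described beside the protein-coding genes by their GENCODE 29 type. Of 76 long intergenic RNAs of at least 10 CPM, 15 were over 1.2-fold higher at 100 mGy and 46 over 1.2-fold lower, with a median log2 ratio of -0.45. Of 52 antisense RNAs 18 were higher and 20 lower, with a median of -0.04, and of 30 processed transcripts 6 were higher and 14 lower, with a median of -0.20. Of the 8257 protein-coding genes 1137 were higher and 4862 lower, with a median of -0.38. LINC01638, a long intergenic RNA that passed the floor on the mean, stood at 7.36 CPM in the control and 16.7 CPM at 100 mGy (ratio 2.26).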
